A study of Rattus norvegicus with 6 samples.

Results

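The genes described here handle iron and copper in the renal cortex: Tfrc, Fth1, Slc40a1, Slc11a2, Aco1, Ireb2, Cp, Slc31a1, Atp7a and Atp7b. All 10 were chosen by name, of 15642 genes named on the array, and every probe whose RefSeq accession belongs to one of them was taken, which gave 24 of the 28194 array probes that carry a single gene name. Cortex RNA came from 3 male Sprague-Dawley rats dosed with ethylenediamine dihydrochloride at 500 mg/kg/day for 4 weeks and from 3 male Sprague-Dawley rats given water for the same 4 weeks. The rats were 5 weeks old when bought, all ate the same basal diet, and each animal was measured on 1 array. The comparison asks whether the transcripts of the metal handling machinery differed in cortex after treatment with this small diamine. Whole cortex is a mixture of cells, so fewer cells of a type and less RNA per cell cannot be told apart in any value below.

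Cells take up iron bound to transferrin through the transferrin receptor (Tfrc), move it out of the endosome through the divalent metal transporter (Slc11a2), hold it in ferritin (Fth1 is the heavy chain) and release it through ferroportin (Slc40a1). Released iron is oxidised by copper-containing ferroxidases such as ceruloplasmin (Cp). The iron regulatory proteins encoded by Aco1 and Ireb2 bind stem-loops in the transcripts of several of these genes, where they stabilise Tfrc mRNA and block the translation of ferritin when iron is scarce. Copper enters through Slc31a1 and is pumped into the secretory pathway or out of the cell by the ATPases Atp7a and Atp7b, the genes of Menkes and Wilson disease. In the kidney, the proximal tubule recovers filtered transferrin and other metal-binding proteins through megalin and cubilin.

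The Tfrc promoter is shown because Tfrc gave the smallest p of the 10 genes, and that of Aco1 because it was the other member whose groups did not overlap. Each line is the 250 bases before the gene's start, from RefSeq on build GRCr8. Tfrc lies at chr11:81690319-81690568 on the minus strand, and Aco1 at chr5:60055645-60055894 on the plus strand. Capitals mark matches, on either strand, to the hypoxia response core ACGTG and to the metal response element, searched as TGCACNC and TGCGCNC.

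Tfrc: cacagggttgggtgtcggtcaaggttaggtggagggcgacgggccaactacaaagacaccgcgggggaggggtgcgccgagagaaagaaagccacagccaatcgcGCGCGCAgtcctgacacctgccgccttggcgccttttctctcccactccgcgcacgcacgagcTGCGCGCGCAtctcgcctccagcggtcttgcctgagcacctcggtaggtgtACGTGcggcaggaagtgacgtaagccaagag
Aco1: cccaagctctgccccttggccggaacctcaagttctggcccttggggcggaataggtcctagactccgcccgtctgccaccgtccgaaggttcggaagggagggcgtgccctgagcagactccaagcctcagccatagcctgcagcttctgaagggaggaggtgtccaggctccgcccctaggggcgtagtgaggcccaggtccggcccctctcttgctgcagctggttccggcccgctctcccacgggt

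In Tfrc the hypoxia core began at position -31 from the start and the metal response letters at -145, -82 and -79, the last 2 overlapping each other on opposite strands. Windows of 300 bases, which add the 50 bases after the start, were found for 9 members. The hypoxia core occurred in windows of 2 of these members (Tfrc and Slc31a1), against 19.3% of all 33469 windows. The metal response letters occurred in 3 (Tfrc, Aco1 and Atp7b), against 24.2%, and in Aco1 the match lay at position 44, after the start. The antioxidant response core TGACNNNGC occurred in 0 of the 9, against 12.1%. A match describes letters only and does not show that a factor binds there.

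Levels are log2 intensities minus the 75th percentile of the same array, so that 0 is the level of that percentile. Probes well above background numbered 35691 to 40843 on ethylenediamine arrays and 38930 to 40563 on water arrays. All 13 markers of renal cortex were well above background on all 6 arrays. By limma 3 of them (Lrp2, Calb1 and Aqp2) were lower in ethylenediamine at an unadjusted p under 0.05, against 4.97% of all genes tested. In the other direction 0 were higher, against 5.39%. The groups did not overlap for 4 lower markers and 1 higher marker, against 8.27% and 9.2% of all genes. The median log2 fold change of these markers was -0.14, against -0.004 over all genes tested. The arrays lay on 2 slides scanned on different days. Ethylenediamine replicate 1 shared slide 1 with the 3 water arrays, and ethylenediamine replicates 2 and 3 were on slide 2, so slide 1 alone compares 1 treated array, assumed to vary like the others, with 3 water arrays. The probes not well above background on any array stood, at the median, 0.84 log2 above the water mean on ethylenediamine replicate 1. That array also had the fewest probes well above background, at 35691.

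By limma, 0 of the 10 members passed an adjusted p of 0.05, as did 0.0% of the 11530 genes tested. At an unadjusted p under 0.05, 2 members were higher (Tfrc and Aco1), against 5.39% of all genes tested, and 0 were lower, against 4.97%. The groups did not overlap for the same 2 genes, both higher in ethylenediamine, against 9.2% of all genes in that direction, and for 0 members in the other direction, against 8.27%. The log2 fold change was positive for 2 members and negative for 8, with a median of -0.09 against -0.004 over all genes tested. All members but Atp7a lay within 0.4 log2 of no change. With each probe tested alone, 23 of the 24 probes passed the filter on dim probes, and 0 of them passed an adjusted p of 0.05 against 0.0106% of the 37822 probes. At an unadjusted p under 0.05 there were 4 member probes above water (3 of Tfrc and that of Aco1), against 4.85% of all probes, and 2 below it (1 each of Slc40a1 and Slc11a2), against 5.84%. The plots of the member probes by array and of the fold changes show these values.

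**Figure D1:**
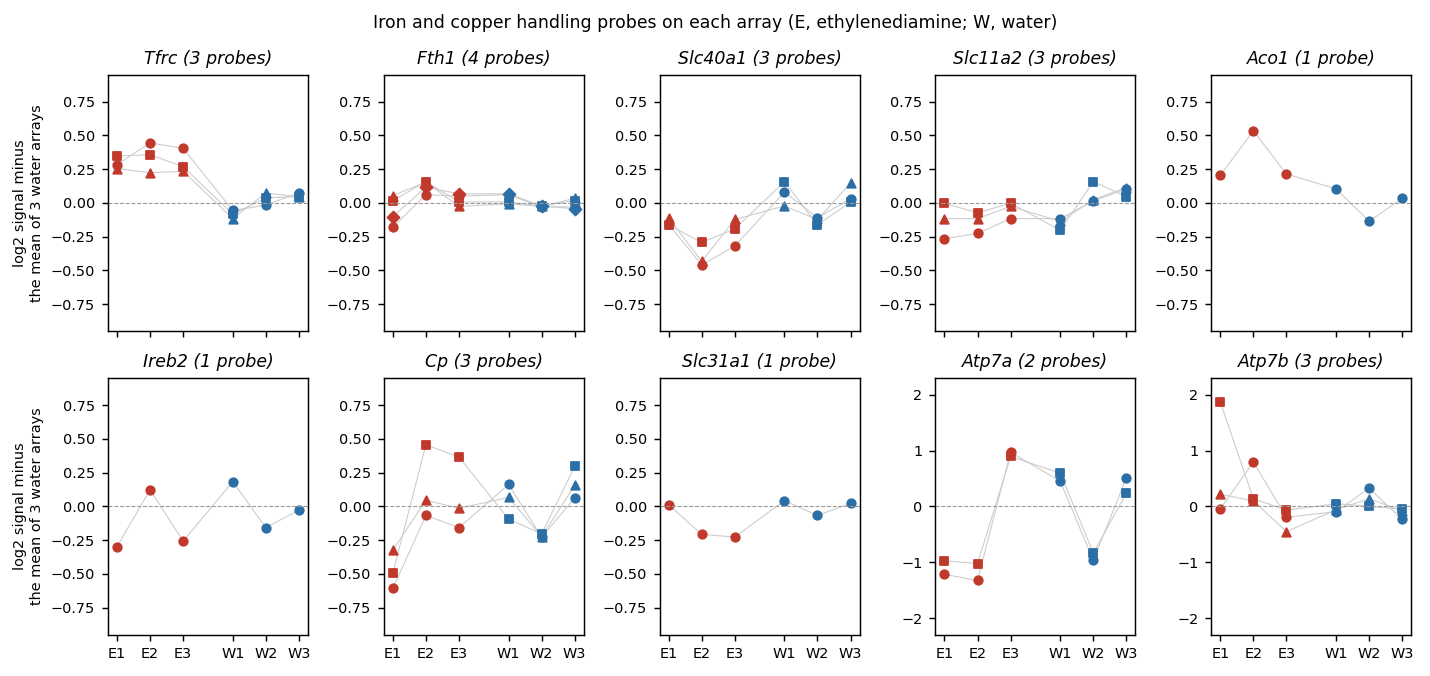
Each panel plots 1 gene, with the log2 signal of each probe minus its mean over the 3 water arrays on the vertical axis and the 6 arrays on the horizontal axis (E1 to E3 ethylenediamine, red; W1 to W3 water, blue; a marker shape for each probe). The 3 Tfrc probes stand above all water arrays on E1 to E3, whereas Atp7a and Atp7b, drawn on a wider axis, spread most within groups.

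**Figure D2:**
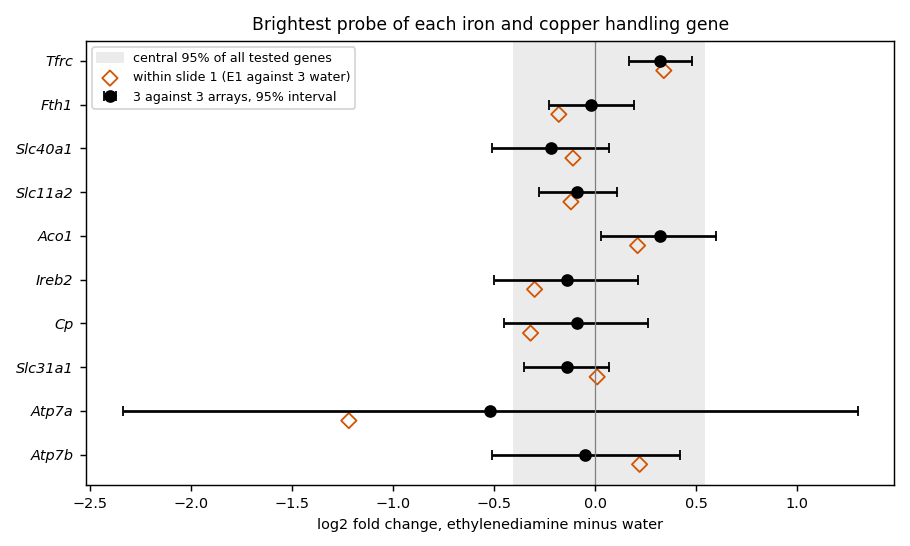
The horizontal axis gives the log2 fold change (ethylenediamine minus water) of the brightest probe of each gene, with black points and 95% intervals from limma over 3 arrays per group. Open diamonds give the value within slide 1 and the grey band runs from -0.40 to 0.54, the central 95% of all genes tested. Only the intervals of Tfrc and Aco1 leave out 0, and that of Atp7a runs from -2.34 to 1.30.

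Among the genes of iron uptake, the transferrin receptor Tfrc stood higher in ethylenediamine cortex by a small margin on all its probes. Its brightest probe, A_44_P214811, had log2 levels of 2.13, 2.14 and 2.05 on ethylenediamine replicates 1 to 3, against 1.70, 1.82 and 1.83 on water replicates 1 to 3. All 3 treated arrays were above all 3 water arrays, with a spread of 0.09 log2 among the treated and 0.13 among the water arrays. The log2 fold change was 0.32 ± 0.06 (SE, n = 3 per group; 95% interval 0.17 to 0.48), or 1.25-fold, with a limma adjusted p of 0.329 over all genes.

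The second Tfrc probe, A_43_P15662, read -1.82, -1.66 and -1.70 in ethylenediamine and -2.16, -2.12 and -2.03 in water. The third, A_44_P313767, read -3.69, -3.72 and -3.71 in ethylenediamine and -4.06, -3.87 and -3.90 in water. The groups did not overlap on either probe, and the log2 fold changes were 0.38 ± 0.07 and 0.23 ± 0.07 (SE, n = 3 per group; adjusted p = 0.345 and 0.381). All probes of Tfrc match 1 RefSeq transcript and were read from the same RNA, so they are not independent replicates. Within slide 1 the brightest probe stood at 0.34 (adjusted p = 0.50, and 0.489 with the slide as a block), and the 2 arrays of slide 2 stood 0.31 above the water mean.

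Red blood cell precursors carry much transferrin receptor, so the markers of blood cells are given beside Tfrc. Of 10 measured red blood cell markers, 7 had a positive log2 fold change, and the median over the list was 0.22. By limma 1 of them was higher at an unadjusted p under 0.05: Ahsp, a chaperone of alpha globin made in red cell precursors, read -0.22, 0.34 and 0.25 in ethylenediamine and -0.81, -0.44 and -0.28 in water, so that its groups did not overlap (0.63 ± 0.20, SE; adjusted p = 0.401). The summed level of the list, most of it globin, ran from 840 to 1160 times the 75th percentile on ethylenediamine arrays and from 796 to 1010 on water arrays. Of 7 tubular injury markers, all 7 had a positive log2 fold change, though that of Krt18 was 0.00 to 2 decimals. By limma 3 (Havcr1, Lcn2 and Spp1) were higher at an unadjusted p under 0.05. Over all genes tested, 5.39% were higher at that p, and 9.2% were higher without overlap of the groups. Havcr1 lay near background in water and was well above it on 2 of 3 water arrays. The summed level of the 7, most of it Spp1, Clu and Krt18, ran from 35.3 to 50 in ethylenediamine and from 22.9 to 36.5 in water. The part of either list in the Tfrc value was not tested.

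The divalent metal transporter Slc11a2, also called DMT1, was near its water level on 2 of its 3 probes. The brightest, A_64_P102433, read 4.34, 4.34 and 4.43 in ethylenediamine and 4.32, 4.48 and 4.57 in water. The groups overlapped, and the log2 fold change was -0.09 ± 0.08 (SE, n = 3 per group; 95% interval -0.28 to 0.11; adjusted p = 0.727). Probe A_64_P102430 read 1.39, 1.32 and 1.39 in ethylenediamine and 1.19, 1.55 and 1.44 in water, a log2 fold change of -0.02.

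The remaining Slc11a2 probe, A_44_P294711, read 3.40, 3.44 and 3.55 in ethylenediamine and 3.55, 3.68 and 3.77 in water. Before rounding all 3 treated arrays were below all water arrays, which was so for 9.57% of all probes. Its log2 fold change was -0.21 ± 0.08 (SE, n = 3 per group; adjusted p = 0.457). The 3 probes carry the same RefSeq accession, and the difference between them was not tested. Within slide 1 the brightest probe stood at -0.12. It stood at -0.15 without water replicate 1 and at -0.03 without water replicate 3.

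Ferritin heavy chain, Fth1, part of the iron store of the cytosol, did not separate the groups on any of its 4 probes. Probe A_43_P13974 read 8.46, 8.70 and 8.69 in ethylenediamine and 8.70, 8.61 and 8.61 in water. The groups overlapped, with the lowest treated value on ethylenediamine replicate 1, and the log2 fold change was -0.02 ± 0.08 (SE, n = 3 per group; 95% interval -0.23 to 0.19). A decrease to 0.855 times the water level and an increase to 1.14 times are the ends of that interval.

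The other Fth1 probes gave small positive values. Probe A_64_P075640 read 8.44, 8.66 and 8.61 in ethylenediamine and 8.61, 8.52 and 8.50 in water. Probe A_44_P292634 read 7.36, 7.50 and 7.35 in ethylenediamine and 7.35, 7.32 and 7.36 in water, and probe A_44_P351546 read 6.56, 6.66 and 6.48 in ethylenediamine and 6.50, 6.48 and 6.54 in water. Their log2 fold changes were 0.03, 0.06 and 0.06, and the groups overlapped on each. The adjusted p of the brightest probe was 0.949, and within slide 1 it stood at -0.18.

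The iron exporter ferroportin, Slc40a1, stood lower in ethylenediamine on all 3 of its probes, and no probe passed the adjusted threshold. Its brightest probe, A_64_P101204, read 2.09, 1.77 and 2.08 in ethylenediamine and 2.18, 2.08 and 2.35 in water. The highest treated arrays reached the lowest water array, and the log2 fold change was -0.22 ± 0.12 (SE, n = 3 per group; 95% interval -0.51 to 0.07; adjusted p = 0.571).

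Probe A_44_P819401 of Slc40a1 read 1.32, 1.19 and 1.29 in ethylenediamine and 1.64, 1.32 and 1.49 in water. Probe A_43_P13162 read -1.63, -1.93 and -1.79 in ethylenediamine and -1.39, -1.58 and -1.44 in water. On both of these probes all treated arrays were below all water arrays, the first by less than rounding shows. The log2 fold changes were -0.22 ± 0.10 and -0.31 ± 0.10 (SE, n = 3 per group), with adjusted p of 0.492 and 0.389. Over all member probes, 3 were lower without overlap (these 2 and the Slc11a2 probe above), against 9.57% of all probes, and 4 were higher without overlap (the 3 of Tfrc and that of Aco1), against 8.43%.

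Macrophages that recycle iron carry much ferroportin. Of 13 listed macrophage markers 10 were tested, and Cd163 was not among them. Of the 10, 2 had a positive and 8 a negative log2 fold change, with 0 past an unadjusted p of 0.05 by limma. At that p 5.39% of all genes were higher and 4.97% lower. The summed level of the 10, most of it Lyz2, was 87.9 to 89.0 on ethylenediamine arrays and 74.5 to 103 on water arrays. On this sum the treated arrays lay inside the range of the water arrays. The part of macrophages in the Slc40a1 value was not tested. Within slide 1 the brightest Slc40a1 probe stood at -0.11, and the 2 arrays of slide 2 stood at -0.27 from the water mean. Without ethylenediamine replicate 2 the log2 fold change was -0.12.

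Ceruloplasmin, Cp, the copper-carrying ferroxidase, did not separate the groups on any probe. Probe A_64_P092201, the brightest and the only one matched to its RefSeq transcript, read 1.70, 2.07 and 2.01 in ethylenediamine and 2.09, 1.80 and 2.18 in water. The log2 fold change was -0.09 ± 0.14 (SE, n = 3 per group; 95% interval -0.45 to 0.26; adjusted p = 0.835). Ethylenediamine replicate 1 was the lowest array on this probe.

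The 2 Cp probes matched to the other RefSeq transcript had opposite signs. Probe A_64_P036925 read -0.06, 0.89 and 0.80 in ethylenediamine and 0.34, 0.23 and 0.73 in water, a log2 fold change of 0.11 ± 0.28. Probe A_44_P139939 read -2.08, -1.54 and -1.63 in ethylenediamine and -1.31, -1.70 and -1.41 in water, which put it at -0.28 ± 0.18 (SE, n = 3 per group for both). Ethylenediamine replicate 1 was again the lowest of the 6 arrays on both probes. Within slide 1 the 3 probes therefore stood at -0.32, -0.50 and -0.61. Without that array the log2 fold changes were 0.02, 0.41 and -0.11. The brightest probe stood at -0.21 without water replicate 2, -0.02 without water replicate 3, -0.17 without ethylenediamine replicate 2 and -0.14 without ethylenediamine replicate 3.

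The iron regulatory proteins had 1 probe each. Aco1, which encodes cytosolic aconitase and acts as iron regulatory protein 1 when it lacks its iron-sulphur cluster, read 6.24, 6.57 and 6.25 in ethylenediamine and 6.14, 5.90 and 6.07 in water. All treated arrays were above all water arrays, with ethylenediamine replicate 2 the highest and the other treated arrays just above water replicate 1. The log2 fold change was 0.32 ± 0.12 (SE, n = 3 per group; 95% interval 0.03 to 0.60), or 1.25-fold, with an adjusted p of 0.455. Without ethylenediamine replicate 2 it was 0.21, and within slide 1 it was also 0.21 (adjusted p = 0.741).

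Ireb2, which encodes iron regulatory protein 2, read -3.08, -2.66 and -3.04 in ethylenediamine and -2.60, -2.94 and -2.81 in water. The groups overlapped, and the log2 fold change was -0.14 ± 0.14 (SE, n = 3 per group; 95% interval -0.50 to 0.21; adjusted p = 0.749). Within slide 1 it was -0.30. Leaving out 1 array moved it between -0.27 (without ethylenediamine replicate 2) and -0.05 (without water replicate 1); it was -0.22 without water replicate 2, -0.07 without ethylenediamine replicate 1 and -0.09 without ethylenediamine replicate 3.

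Of the copper genes, the importer Slc31a1, also called CTR1, read 0.44, 0.22 and 0.20 in ethylenediamine and 0.47, 0.36 and 0.45 in water. Ethylenediamine replicates 2 and 3, both on slide 2, were below all other arrays, and replicate 1, on slide 1, lay among the water arrays. The log2 fold change was -0.14 ± 0.08 (SE, n = 3 per group; 95% interval -0.35 to 0.07; adjusted p = 0.615). Within slide 1 it was 0.01, and the 2 arrays of slide 2 stood at -0.22 from the water mean.

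The copper ATPase Atp7a had by far the widest spread of the 10 genes. Probe A_43_P12743 read -1.55, -1.66 and 0.64 in ethylenediamine and 0.12, -1.30 and 0.18 in water. Probe A_44_P520265 read -3.93, -3.98 and -2.06 in ethylenediamine and -2.36, -3.79 and -2.72 in water. On both probes ethylenediamine replicate 3 and water replicates 1 and 3 were high, and ethylenediamine replicates 1 and 2 and water replicate 2 were low, with no array in between. Both high and low values occurred in both groups and on both slides.

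For Atp7a the fitted log2 fold change was -0.52 ± 0.74 on the brighter probe and -0.36 ± 0.63 on the other (SE, n = 3 per group; adjusted p = 0.823 and 0.858). The 95% interval of the brighter probe, from 0.197 to 2.46 times the water level, leaves changes of either direction unresolved. Its SD within groups was 1.09 log2, at percentile 99.4 of the genes tested, where the median gene had 0.12. That SD was 0.06 for Tfrc (percentile 20.7). Without ethylenediamine replicate 3 the log2 fold change was -1.27, and without ethylenediamine replicate 2 it was -0.12. Within slide 1 it was -1.22.

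Atp7b, the copper ATPase best known from liver, had 3 probes. Probe A_64_P017645 read -1.96, -2.08 and -2.63 in ethylenediamine and -2.24, -2.04 and -2.26 in water, which put it at -0.05 ± 0.19 (SE, n = 3 per group; 95% interval -0.51 to 0.42; adjusted p = 0.949). Within slide 1 it stood at 0.22, and with the mean of both kept probes at 0.30, each with the opposite sign. Probe A_64_P017640 read -1.04, -2.78 and -2.98 in ethylenediamine and -2.87, -2.91 and -2.97 in water. Here 5 arrays lay within a narrow range and ethylenediamine replicate 1 stood apart above them.

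This second Atp7b probe had a log2 fold change of 0.65 ± 0.51 over all arrays (SE, n = 3 per group; adjusted p = 0.678) and 0.04 without ethylenediamine replicate 1. Within slide 1 it was 1.88 (adjusted p = 0.0659), and with the slide as a block, where the same array alone sets the estimate, the adjusted p was 0.0275. Probe A_64_P017645 was at its highest on that array by a small margin only, at -1.96 against -2.63 to -2.04 on the other arrays. The raised level of dim probes on ethylenediamine replicate 1, given above, accompanies this value, and its part in the result was not tested. The third probe, A_44_P306339, was well above background on 2 of 3 arrays of each group and was not tested. It read -4.95, -4.11 and -5.10 in ethylenediamine and -5.00, -4.58 and -5.14 in water, with the highest value on ethylenediamine replicate 2.

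**Figure D3:**
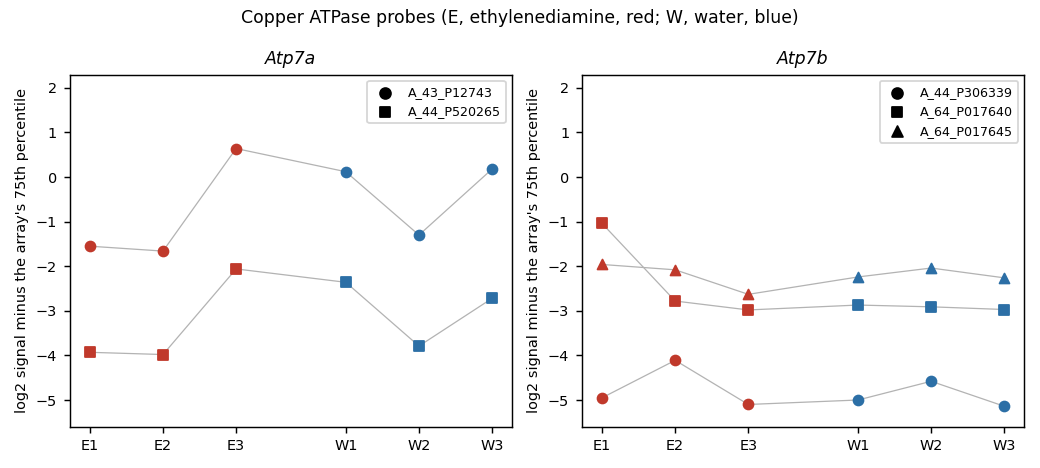
The vertical axis gives the log2 signal minus the 75th percentile of the array and the horizontal axis the 6 arrays (E1 to E3 ethylenediamine, red; W1 to W3 water, blue), with a marker shape for each probe of Atp7a (left) and Atp7b (right). Both Atp7a probes are high on E3, W1 and W3, and 1 Atp7b probe is high on E1 alone, at -1.04 against -2.78 to -2.98 on the other 5 arrays.

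The wider machinery was described through 5 lists of iron and copper genes that do not include the 10 members. Of 110 listed genes 89 were tested, and by limma 0 passed an adjusted p of 0.05 in either direction. An unadjusted p under 0.05 was reached by 6 genes above water and by 8 below it, against 5.39% and 4.97% of all genes. Their median log2 fold change was 0.00, as over all genes tested to 2 decimals. The plot of the 5 lists shows their values beside those of the members.

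Of 14 iron uptake genes tested, 2 were higher and 2 lower at an unadjusted p under 0.05, against 5.39% and 4.97% of all genes. The list median of the log2 fold change was 0.01. Steap1, a member of the STEAP family of metalloreductases, had levels of 2.40, 2.85 and 2.88 in ethylenediamine and 2.06, 2.04 and 2.22 in water. The groups did not overlap, which was so for 9.2% of all genes in the higher direction. By limma the log2 fold change was 0.61 ± 0.15 (SE, n = 3 per group, adjusted p = 0.333), with 0.29 within slide 1. Its relatives Steap2 and Steap4 stood at 0.09 ± 0.08 and 0.00 ± 0.20. Steap3, near background, stood at 0.03 ± 0.06. Lcn2, a carrier of iron-binding siderophores and a marker of tubular injury, stood at 1.06 ± 0.36, and within slide 1 at 0.82. The endocytic receptor megalin (Lrp2) stood at -0.19 ± 0.06 and the ferric reductase Cybrd1 at -0.20 ± 0.06. Transferrin (Tf) stood at 0.36 ± 0.24 and the metal importer Slc39a14 at 0.19 ± 0.08. Within slide 1 Tf stood at -0.01 and Slc39a14 at 0.07. Tf stood at 0.22 without ethylenediamine replicate 2, at 0.55 without ethylenediamine replicate 1 and at 0.57 without water replicate 2. Slc39a14, with 4 probes on the array, stood at 0.41 with the mean of its probes. Of 5 hepatocyte markers measured, 3 had a positive log2 fold change. The summed level of the 5, most of it F2 and Fgb, was 2.48 to 5.89 in ethylenediamine and 2.03 to 3.79 in water. F2 was highest on ethylenediamine replicate 3, at 2.08 log2. Tf and Cp are also made in liver, and the part of this list in their values was not tested. The only probe of the second transferrin receptor, Tfr2, was well above background on 0 arrays, and no named probe of Fbxl5, which marks iron regulatory protein 2 for breakdown, was matched here.

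Of 14 genes of iron storage, iron release and haem transport, 2 were higher and 1 lower at an unadjusted p under 0.05. At that p 5.39% of all genes were higher and 4.97% lower. The list median was -0.06. Blvrb, a biliverdin reductase of haem breakdown, stood at 0.31 ± 0.09, the iron chaperone Pcbp2 at 0.13 ± 0.05 and the haem transporter Slc48a1 at -0.17 ± 0.07. The ferritin light chain Ftl1 stood at 0.00 ± 0.06 (95% interval -0.15 to 0.15). Ncoa4, the receptor for the autophagy of ferritin, stood at 0.05 ± 0.18. Hephaestin (Heph), a ferroxidase related to ceruloplasmin, stood at -0.31 ± 0.15, and at -0.18 without water replicate 3.

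Haem oxygenase Hmox1, which frees iron from haem, was decided by 1 water array. Its only probe read -1.22, -1.38 and -1.09 in ethylenediamine and 5.40, -1.72 and -1.36 in water. Water replicate 1 stood far above the other 5 arrays, and without it the log2 fold change was 0.31 rather than -2.0. On that array the brightest Fth1 probe, at 8.70, was the highest of the water arrays, though level with ethylenediamine replicates 2 and 3. Fth1 probe A_64_P075640, at 8.61, was also the highest of the water arrays there. Fth1 probes A_44_P292634 and A_44_P351546 were not, at 7.35 and 6.50 against 7.36 and 6.54 on water replicate 3. Tfrc was at its lowest on water replicate 1 on all 3 probes. Whether these levels go with that of Hmox1 was not tested. Without water replicate 1 the log2 fold change was 0.28 for Tfrc and 0.01 for Fth1.

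Of 15 genes of iron regulation, 0 were higher and 1 lower at an unadjusted p under 0.05, against 5.39% and 4.97% of all genes. The list median was -0.04. The lower one was Tmprss6, a protease known from liver to restrain the iron hormone hepcidin. It read -3.73, -3.61 and -3.71 in ethylenediamine and -3.49, -3.40 and -3.29 in water, which put it at -0.29 ± 0.07 (SE, n = 3 per group; adjusted p = 0.343), and -0.34 within slide 1. Hepcidin itself (Hamp) read -4.80, -4.84 and -5.19 in ethylenediamine and -4.44, -4.83 and -4.09 in water, at -0.49 ± 0.21. Hamp lay near background, and was well above it on 2 of 3 ethylenediamine arrays and 3 of 3 water arrays. Without water replicate 3 Hamp stood at -0.31, and with normexp background at -0.22. The haemochromatosis gene Hfe stood at -0.37 ± 0.18, at -0.19 without water replicate 1 and at -0.23 with normexp background.

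Among 22 genes of mitochondrial iron, iron-sulphur clusters and haem synthesis, 0 were higher and 3 lower at an unadjusted p under 0.05, with a median of 0.00. The cluster assembly genes Bola3, Isca1 and Nfs1 stood at -0.22 ± 0.06, -0.21 ± 0.08 and -0.12 ± 0.05, and Ciao1, of the cytosolic branch, at -0.18 ± 0.08 (SE, n = 3 per group). Within slide 1 these stood at -0.26, -0.09, -0.10 and -0.20. Isca1 stood at -0.13 with the mean of its probes, and Ciao1 at -0.11 without water replicate 2.

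Of 24 copper chaperones, cuproenzymes and metallothioneins tested, 2 were higher and 1 lower at an unadjusted p under 0.05. At that p 5.39% of all genes were higher and 4.97% lower. The list median was 0.00. Slc31a2, a copper transporter of the same family as Slc31a1, read 3.30, 3.68 and 3.92 in ethylenediamine and 3.20, 3.08 and 3.25 in water. All treated arrays were above all water arrays, which was so for 9.2% of all genes. By limma the log2 fold change was 0.45 ± 0.16 (SE, n = 3 per group, adjusted p = 0.442), whereas Slc31a1 itself stood at -0.14. Within slide 1 Slc31a2 stood at 0.12, and the arrays of slide 2 at 0.62. The copper-binding prion protein Prnp stood at 0.30 ± 0.09 and Xiap, which acts on copper chaperones in human cells, at -0.24 ± 0.09. Slc25a3, the mitochondrial phosphate and copper carrier, stood at -0.13 ± 0.06, and at -0.05 within slide 1.

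The copper chaperones that feed the ATPases and enzymes lay close to 0. Atox1, which hands copper to Atp7a and Atp7b, stood at 0.08 ± 0.06 (95% interval -0.07 to 0.22), and Ccs, which loads superoxide dismutase, at 0.06 ± 0.05 (-0.08 to 0.19). Cox17, which carries copper to cytochrome oxidase, stood at -0.03 ± 0.07, Commd1 at 0.05 ± 0.05 and the copper-zinc superoxide dismutase Sod1 at -0.06 ± 0.07 (SE, n = 3 per group). Each of these intervals lay within 0.23 log2 of 0.

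**Figure D4:**
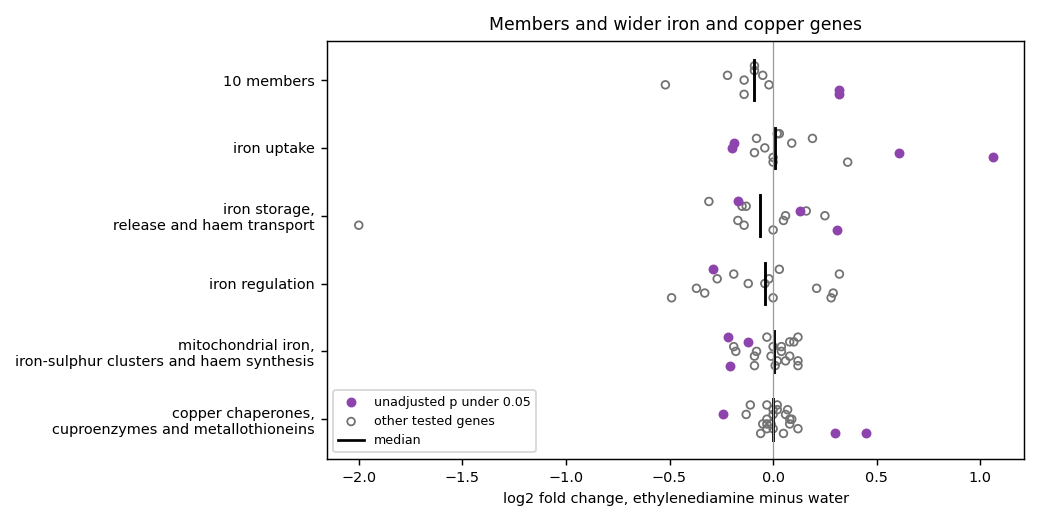
Each point is a tested gene, placed by its log2 fold change (ethylenediamine minus water) on the horizontal axis, with a line at the list median; the rows are the 10 members and the 5 wider lists, and filled points had an unadjusted p under 0.05. The medians run from -0.09 for the members to 0.01 for iron uptake, and Hmox1 at -2.0 is set by water replicate 1.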

How the data were processed

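Total RNA of 6 rats was hybridised to 1-colour Agilent arrays. From each sample 0.2 ug RNA was turned into Cy3-labelled cRNA, per the labels' protocols. The deposited files hold linear intensity per spot, background-subtracted and detrended within each array by Agilent Feature Extraction 10.7.1.1 on a probe grid built on rn4, per the file headers. The submitters' processing notes name version 10.7. The authors' flags for signal above background were taken as deposited. A further table that the authors deposited gives this intensity divided by each array's 75th percentile (100.0% of probes within 2% of that scaling). It has column medians of 0.1061, 0.1104 and 0.1071 for ethylenediamine replicates 1 to 3 and 0.1076, 0.1052 and 0.1046 for water replicates 1 to 3, and served as an alternative.

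Here intensities were taken as log2 and each array's 75th percentile was subtracted. Control spots (1439) and 22 of 61537 probes with an outlier flag were left out; 0 spots were saturated. Probes were named by accession through a GRCr8 annotation, used for names only (28194 named, 33321 unnamed). A probe was kept if well above background on all 3 arrays of a group (37822 probes), and the brightest probe stood for each of 11530 genes. Differences between groups were fitted in R 4.3.3 by limma 3.58.1 (lmFit and eBayes; 4 residual and 1.84 prior degrees of freedom; Benjamini-Hochberg over all genes or all probes). Intervals are 95% intervals of that fit. The script was tested on simulated data with known changes. The number of arrays limits the precision.

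The groups come from the labels, which describe 3 animals each. The main fit did not use the replicate numbers as pairs. Deviations from the group means correlated between -0.008 and 0.022 for same-numbered arrays. For arrays of different numbers they correlated between -0.029 and 0.03. The members, the 5 lists and the marker lists were chosen with earlier results of these data known. All members were named. From each list the genes past the adjusted threshold, or else the 4 with the smallest p, were named, along with a fixed set of well-known genes; a gene that this rule chose is not reported here. The scanner files hold no mean signal column, so the normexp alternative (offset 50) used median signals. The other alternatives were median and quantile scaling, the deposited values, other filters, the mean of a gene's probes, an intensity trend, robust eBayes, array weights, the slide or the replicate number as a block, slide 1 alone, and each array left out.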

Additional observations from a re-analysis of the deposited data

How the results depend on the processing

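Of 759 values of the 40 genes that the naming rule chose, under up to 19 alternatives, 728 kept their sign and their side of the adjusted threshold, 31 changed sign and 0 passed it. Tfrc ranged from 0.28 to 0.35 (adjusted p 0.224 to 0.555), Aco1 from 0.21 to 0.37 (0.341 to 0.841), Slc40a1 from -0.28 to -0.11 (0.439 to 0.921), Slc11a2 from -0.15 to -0.03, Ireb2 from -0.30 to -0.05 and Atp7a from -1.27 to -0.12. The unadjusted p stayed under 0.05 in 19 of 19 alternatives for Tfrc and in 13 of 19 for Aco1. For Slc40a1 it fell under 0.05 in 2 of 19 and for Slc31a1 in 1 of 19.

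The count of genes past the threshold was 0, against 1 with an intensity trend, 10 with a slide term and 6 on slide 1 alone, and 0 to 1 with 1 array left out (1 without water replicate 2 or ethylenediamine replicate 1). The count of probes was 4, against 7 after normexp, 76 with a slide term, 0 with the replicate block, and 1 to 9 with 1 array left out. Of the member probes 1 passed with a slide term (Atp7b, A_64_P017640). Members at an unadjusted p under 0.05 numbered 2, against 1 with a slide term or on slide 1 alone, and 1 to 3 with 1 array left out (1 without water replicate 2 or 3 or ethylenediamine replicate 2). The replicate block changed no other call. With the mean of a gene's probes, members at an unadjusted p under 0.05 numbered 3.

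With a slide term or on slide 1 alone, list medians were -0.06 for iron uptake, -0.12 for storage and haem transport and -0.13 for regulation. The storage median was 0.02 with no filter. The regulation median was -0.08 with normexp and -0.14 with array weights. Under median scaling the medians were -0.02 for mitochondrial iron and -0.03 for copper chaperones. With 1 array left out they ran, in the order uptake, storage, regulation, mitochondrial iron and copper, from 0.00 to 0.07, from -0.09 to 0.07, from -0.14 to 0.01, from -0.02 to 0.00 and from -0.01 to 0.03.

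Signs changed in these results. Fth1 stood at 0.01 with normexp, 0.03 with the mean of probes and 0.00 with array weights, and Ftl1 at 0.03, 0.01 and 0.02. With 1 array left out Fth1 ran from -0.06 to 0.06 and Ftl1 from -0.04 to 0.03. Cp ran from -0.21 to 0.02, positive without ethylenediamine replicate 1. On slide 1 alone or with a slide term, Slc31a1 stood at 0.01, Atp7b at 0.22, Tf at -0.01, Ncoa4 at -0.18 and Cox17 at 0.04. Atp7b stood at 0.30 and Commd1 at -0.01 with the mean of probes. With 1 array left out Atp7b ran from -0.18 to 0.16, Ncoa4 from -0.10 to 0.18, Cox17 from -0.06 to 0.03 and Hmox1 from -3.25 to 0.31. The cause of these changes was not tested. Probes near background (Hamp and the dimmest Atp7b probe) are limited by signal.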
